A study of Mus musculus with 20 samples.

Results

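The major histocompatibility complex (MHC, called H2 in the mouse) was described from 58 rows of a liver RNA sequencing count table that holds 58395 rows. The members were chosen by position: every counted interval of the row had to lie between 33500000 and 37300000 on chromosome 17 of the mouse mm10 genome, at least 1 interval had to touch a mouse exon (GENCODE M21), and the row needed 20 or more counts over all 20 libraries. Of 154 rows inside that window, 79 lay over a mouse exon, 71 of these had a count, and 58 had 20 or more. The largest rows left out by the count were over H2-DMb2 with 16 counts, Btnl2 with 12, Ly6g6e with 12 and Gm9613 with 10, and the smallest kept were over Ly6g6d with 20, 1700031A10Rik and Trim31 with 25, and H2-T10 and BC023719 with 28. Apart from that total, no measured value chose the members. The total favours rows that are high in some group. Of the 58, 51 had 20 or more counts in the 10 control mice and 55 had as many in the 10 anti-CD40 mice.

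Livers came from 20 individual mice in 4 groups of 5. Mice 16 to 20 received anti-CD40 with no antibiotics, mice 6 to 10 were controls with no antibiotics, mice 11 to 15 received anti-CD40 with antibiotics (ABX), and mice 1 to 5 were controls with ABX. Anti-CD40 binds CD40, a costimulatory member of the TNF receptor family on B cells, dendritic cells and macrophages. Strain, sex, age, dose, timing, the antibiotics and whether the antibody stimulates or blocks the receptor are not stated in the sources read. All 4 groups are whole liver, so a row gives the sum over hepatocytes and all other cells, and fewer cells of a type cannot be told apart from less RNA per cell.

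The MHC gathers genes that let cells show peptides to T cells. Class I molecules sit on most nucleated cells and present peptides made inside the cell to CD8 T cells, while class II molecules are carried mainly by professional antigen-presenting cells and serve CD4 T cells. Class I peptides are cut by the proteasome, in which inducible subunits such as Psmb9 can replace the standard ones, and are pumped into the endoplasmic reticulum by a transporter of which Tap1 is one chain. Interferon gamma is the best known inducer of both classes. The mouse region runs from a class I gene pair (H2-K) through the class II genes to the class III genes, which encode complement components, cytokines and housekeeping proteins, and on to the H2-D, H2-Q, H2-T and H2-M class I clusters, between which lie unrelated framework genes.

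A row of this table is not a gene. Per the file headers, the authors counted mouse alignments at the exon coordinates of the human genome, so the human identifier of a row has no meaning here, and each row measures whatever mouse transcript lies under those intervals. The 58 rows touched exons of 96 mouse genes: 30 rows lay over 1 gene and 28 over several, and a row over several genes is named by all of them and stands for the interval. Most counted bases lay outside annotated exons in many rows, with a share of 66.7% in the H2-Aa row, 96% in the H2-DMb1 row, 82.6% in the Psmb9/Tap1 row and 84.3% in the row over H2-D1 and Ddx39b, so a row's change need not be that of the gene it is named by. The class II genes were covered thinly, with 2 of the 9 listed (H2-Aa and H2-DMb1) under a member row, along with 2 of 5 antigen-processing genes (Tap1 and Psmb9), 1 of 4 complement genes (Cfb), 3 of 6 genes of the tumour necrosis factor cluster (Ltb, Lst1 and Aif1) and 1 of 3 heat shock genes (Hspa1b). By landmark genes, 4 rows fell in the proximal flank before H2-K, 1 in H2-K, 5 in the class II part, 15 in the class III part and 33 in the distal class I part.

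Promoters of 6 genes under presentation rows are shown first, of which 5 lie under rows that rose and H2-Q10 under rows that were lower. They are shown because class I and class II promoters carry short elements that are known to respond to interferons and to NF-kappa B. Each is the 250 bases before the start of the RefSeq gene (build GRCm38.p6), read 5′ to 3′ on the gene's strand: H2-Aa at chr17:34287824-34288073 on the minus strand, H2-DMb1 at chr17:34152941-34153190, Tap1 at chr17:34187306-34187555, H2-D1 at chr17:35262844-35263093, H2-Q7 at chr17:35438905-35439154 and H2-Q10 at chr17:35469839-35470088 on the plus strand. Capitals mark ATTGG or its complement CCAAT (the core of the class II Y box, which NF-Y binds), and 2 elements taken from the H2-D1 promoter itself: GGGGATTCCCC, the class I kappa B element, and AGTTTCACTT, the class I interferon response element.
H2-Aa: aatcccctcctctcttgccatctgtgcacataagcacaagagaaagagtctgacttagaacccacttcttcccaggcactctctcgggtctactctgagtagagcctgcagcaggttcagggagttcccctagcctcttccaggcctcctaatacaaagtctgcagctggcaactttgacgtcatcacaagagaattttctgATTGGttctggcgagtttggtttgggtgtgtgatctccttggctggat
H2-DMb1: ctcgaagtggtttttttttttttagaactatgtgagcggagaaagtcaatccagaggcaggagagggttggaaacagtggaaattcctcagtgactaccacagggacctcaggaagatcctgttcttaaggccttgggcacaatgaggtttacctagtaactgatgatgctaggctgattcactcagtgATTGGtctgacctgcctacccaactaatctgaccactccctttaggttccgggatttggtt
Tap1: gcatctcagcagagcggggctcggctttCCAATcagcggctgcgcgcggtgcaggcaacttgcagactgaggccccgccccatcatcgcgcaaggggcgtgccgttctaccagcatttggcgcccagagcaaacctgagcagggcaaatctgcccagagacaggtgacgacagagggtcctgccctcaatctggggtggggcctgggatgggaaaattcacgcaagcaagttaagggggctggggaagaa
H2-D1: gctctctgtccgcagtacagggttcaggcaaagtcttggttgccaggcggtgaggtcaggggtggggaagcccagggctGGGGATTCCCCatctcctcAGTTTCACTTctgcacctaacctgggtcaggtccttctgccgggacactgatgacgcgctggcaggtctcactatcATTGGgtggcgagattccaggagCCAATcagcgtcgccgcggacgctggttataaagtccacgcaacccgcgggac
H2-Q7: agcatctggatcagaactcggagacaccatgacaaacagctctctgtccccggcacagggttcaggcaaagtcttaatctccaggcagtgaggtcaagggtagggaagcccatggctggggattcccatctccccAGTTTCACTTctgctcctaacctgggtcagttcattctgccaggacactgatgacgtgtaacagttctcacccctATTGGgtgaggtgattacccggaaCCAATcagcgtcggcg
H2-Q10: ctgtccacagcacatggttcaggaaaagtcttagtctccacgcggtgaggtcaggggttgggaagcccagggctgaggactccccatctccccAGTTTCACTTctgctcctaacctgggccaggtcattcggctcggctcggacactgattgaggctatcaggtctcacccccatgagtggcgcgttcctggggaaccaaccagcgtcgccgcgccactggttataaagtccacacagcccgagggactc
In H2-Aa the ATTGG core lay at -48 to -44 from the gene start and in H2-DMb1 at -61 to -57. Tap1 and Psmb9 start close together on opposite strands, and the 1 core in this window lay at -222 to -218 of Tap1, which are the bases at -8 to -4 of Psmb9. H2-D1 and H2-Q7 each held 2 cores, and H2-Q10 held none. Searched on both strands, ATTGG was present in 33.8% of 32851 RefSeq promoter windows of the same length, so its presence alone is common, and in 26 of the 91 windows that belong to 65 of the 96 genes under member rows. The class I elements were rare on either strand: GGGGATTCCCC was in 0.0304% of windows and AGTTTCACTT in 0.128%.

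The 3 class I promoters could be laid side by side, since H2-Q7 matched H2-D1 at 85.8% of aligned bases, H2-Q10 matched H2-D1 at 87.1% and H2-Q10 matched H2-Q7 at 86.2%. The stretch with the kappa B element and the interferon element read as follows, with the same letters in capitals.
H2-D1: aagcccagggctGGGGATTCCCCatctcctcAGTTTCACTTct
H2-Q7: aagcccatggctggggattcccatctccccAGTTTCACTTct
H2-Q10: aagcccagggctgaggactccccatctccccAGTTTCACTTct
The interferon element was identical in the 3 genes. At the kappa B position H2-Q7 had 10 bases, GGGGATTCCC, in place of the 11 of H2-D1, and H2-Q10 had GAGGACTCCCC, which differs from H2-D1 by G2A and T6C when positions are counted from 1 at the 5′ end of the element. These are descriptions of sequence, and binding was not measured here.

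Libraries held 5391794 to 6211642 counted fragments in anti-CD40 mice and 6196703 to 7618736 in controls, and 5053014 to 5874749 in anti-CD40 mice with ABX and 6201453 to 7282519 in controls with ABX. Member rows held 2.23% of all counts. Levels are given as TMM-normalised counts per 1000000 (CPM), listed in order of mouse number, and are not per length, so they compare mice and not genes. Differences are log2 fold changes ± SE from 1 edgeR quasi-likelihood fit over 5432 rows of the whole table, with Benjamini-Hochberg adjusted p-values over those rows, and a row was called at an adjusted p under 0.05. Of the 58 members, 46 passed the filter on low counts and were tested; 12 did not. Scaling matters for small changes: with library totals in place of TMM, the median log2 fold change of all tested rows stood at 0.27 without ABX and 0.36 with ABX, beside 0.02 and 0.01 with TMM. Plate positions, read from the well names, differed between groups: control mice with ABX and control mice 6 to 8 were in column 3, control mice 9 and 10, all anti-CD40 mice with ABX and anti-CD40 mouse 16 in column 4, and anti-CD40 mice 17 to 20 in column 5. What a plate column stands for is not stated in the sources read.

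Anti-CD40 went with higher counts across much of the region, both without and with ABX, and among rows over genes of antigen presentation the steepest rises lay over Psmb9/Tap1 and H2-Aa. Without ABX, 30 of the 46 tested rows were called higher in anti-CD40 mice than in controls and 3 lower, so 71.7% were called, against 57.7% of all tested rows of the table (29.6% higher and 28.1% lower). With ABX, 23 were called higher and 6 lower, against 50.6% of all tested rows called (25.6% higher and 24.9% lower). The median log2 fold change over tested members was 0.43 without ABX and 0.34 with ABX, beside 0.02 and 0.01 for all tested rows. In 28 of the 46 rows without ABX and in 26 with ABX the anti-CD40 and control mice did not overlap, which held for 41.5% and 37.5% of all tested rows. The change was called and 2-fold or more in 17 rows in each contrast, against 26.1% and 23.5% of all tested rows. These counts describe the rows that passed the filter, and 3 of those rows had under 5 counts in some control mouse. The rows over Ppp1r18 and Gm4152 reached the filter only through anti-CD40 libraries, so a difference was built into their choice. The Adamts10 row reached it only through control libraries, so a lower value was built into its choice. Among the 44 rows with 5 or more control libraries past the minimum of that filter, 28 were called higher and 3 lower without ABX, and 21 higher and 6 lower with ABX. Adamts10 is still among these 44 rows and among the 6 called lower with ABX.

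**Figure D1:**
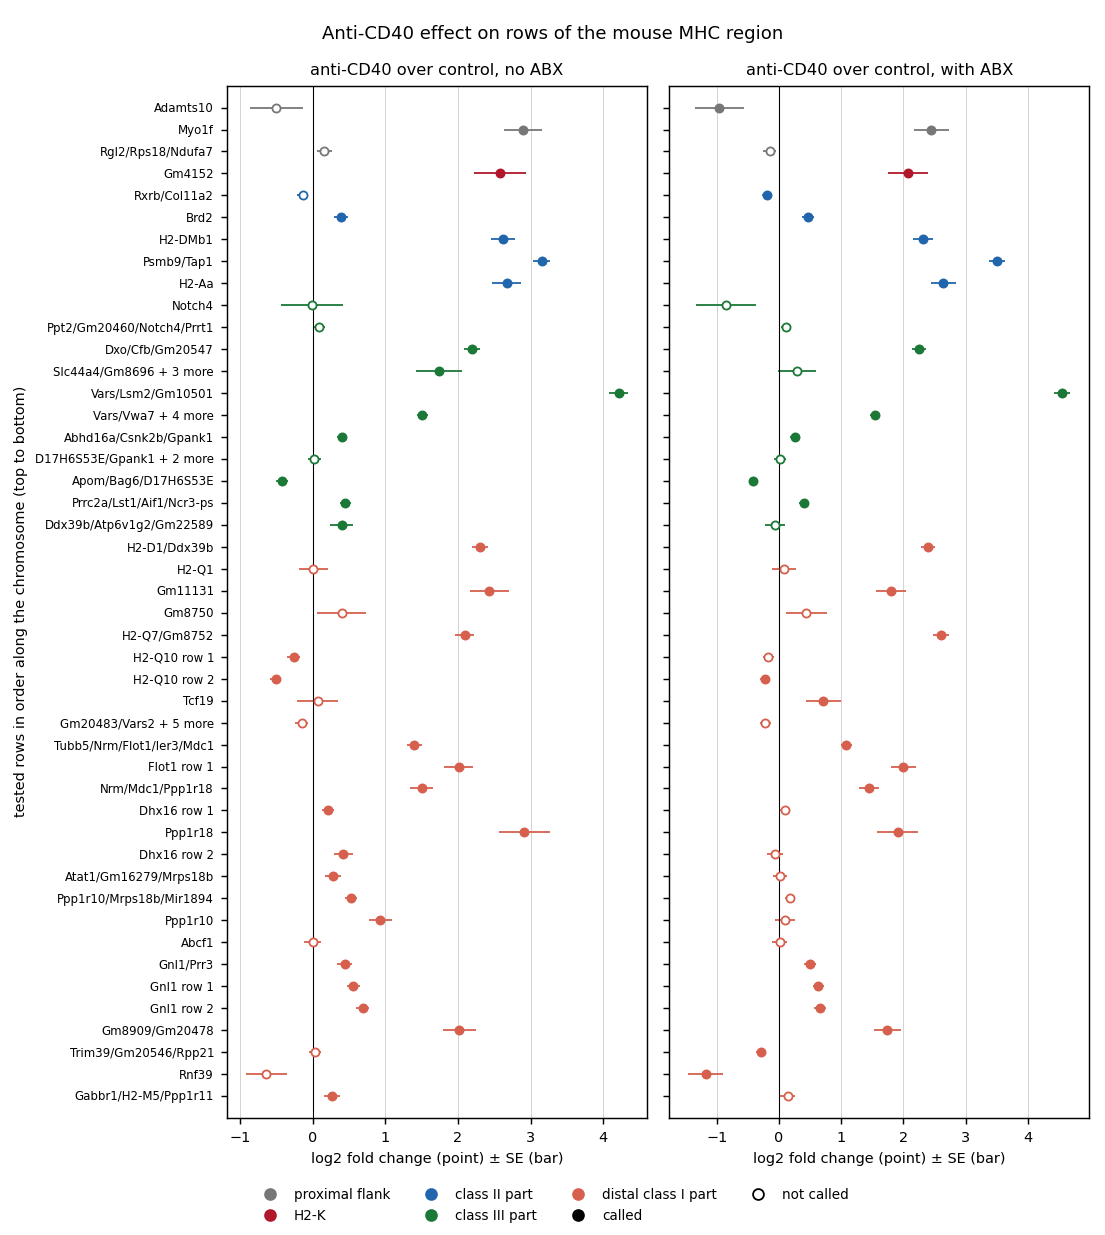
Log2 fold change (x axis, point ± SE) of anti-CD40 over control for the 46 tested rows, which run from top to bottom in their order along the chromosome (y axis), without ABX on the left and with ABX on the right. Filled points are called and open points are not, and colours mark the parts of the region. The point farthest to the right in both panels is the Vars/Lsm2/Gm10501 row, at 4.21 and 4.55, and the points over Psmb9/Tap1, H2-Aa, H2-DMb1, H2-D1/Ddx39b and H2-Q7/Gm8752 all lie above 2.

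The 2 contrasts share no libraries, so their calls can be set side by side. Of the 46 tested rows, 22 were called higher in both, 2 were called lower in both, none was called in opposite directions, and 8 were called in neither. Those are 47.8%, 4.35%, 0% and 17.4% of the tested members. Over all 5432 tested rows of the table, 20.8% were called higher in both, 19.3% lower in both, 0.11% higher without and lower with ABX, 0.184% the reverse, and 32.1% in neither. Of the members, a further 8 were called higher only without ABX, 1 was called higher only with ABX, 1 lower only without ABX and 4 lower only with ABX; being called on one side alone does not show that the effects differ, and the test of that difference is given further on. By part, the tested rows called higher without ABX were 1 of 3 in the proximal flank, 1 of 1 in H2-K, 4 of 5 in the class II part, 7 of 11 in the class III part and 17 of 26 in the distal class I part. With ABX the called-higher counts were 1 of 3, 1 of 1, 4 of 5, 5 of 11 and 12 of 26 in the same order of parts. With library totals in place of TMM the counts were 34 higher and 2 lower without ABX and 35 higher and 1 lower with ABX. That scaling also called 41.5% of all tested rows higher and 17.9% lower without ABX, and 45.2% higher and 13.8% lower with ABX.

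Only mouse 16 among the anti-CD40 mice without ABX shared a plate column with controls, mice 9 and 10. Within that column the log2 ratio of mouse 16 over those 2 controls was 2.93 for Psmb9/Tap1, 2.85 for H2-Aa, 2.4 for H2-D1/Ddx39b, 4.02 for Vars/Lsm2/Gm10501 and -0.64 for the H2-Q10 row starting at 35470069. These libraries are part of the comparison that called the rows and the ratios rest on 1 anti-CD40 mouse, so they are a description and no separate check of direction. With ABX no column held both groups, so there antibody and plate column cannot be told apart by such a comparison. With plate column as a term of the fit, 23 rows were called higher and 1 lower without ABX, and 19 higher and 1 lower with ABX, where that fit called 31.4% and 29.7% of all tested rows.

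Among rows over class II genes the one with the most counts lay over H2-Aa, the alpha chain of the class II molecule I-A (34285668 to 34288334, 359 bp of exon of which 85 bp coding). It was counted at 393, 354, 337, 289.6 and 303 CPM in anti-CD40 mice, against 52.1, 34.2, 69.1, 58.2 and 49.9 CPM in controls. With ABX it was counted at 402, 466, 396, 345 and 331 CPM in anti-CD40 mice, against 64.6, 88, 57.1, 35.5 and 66.5 CPM in controls. Every anti-CD40 mouse stood far above every control on both sides, 6.36-fold higher without ABX and 6.22-fold higher with ABX. The log2 fold changes were 2.67 ± 0.20 (edgeR adjusted p = 6.11e-10) and 2.64 ± 0.20 (edgeR adjusted p = 8.21e-10).

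H2-DMb1 encodes the beta chain of H2-DM, which exchanges peptides on class II molecules, and its row (34155566 to 34165679, 149 bp of coding exon) moved to a similar degree. It gave 22.3, 18.8, 22.4, 21.1 and 21.7 CPM in anti-CD40 mice and 2.92, 3.5, 4.54, 3.87 and 2.35 CPM in controls without ABX. It gave 29.6, 24.6, 18.2, 23.9 and 23.9 CPM in anti-CD40 mice and 4.89, 6.19, 4.48, 3.85 and 4.79 CPM in controls with ABX. The groups did not overlap in either setting. The row was 6.16-fold higher without ABX (log2 2.62 ± 0.16, edgeR adjusted p = 3.5e-13) and 4.95-fold higher with ABX (log2 2.31 ± 0.16, edgeR adjusted p = 3.04e-12).

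The interval over Psmb9 and Tap1 (34169372 to 34195937) covers 130 bp of exon of the inducible proteasome subunit and 94 bp of the peptide transporter chain, whose reads cannot be split here. Anti-CD40 mice had 241, 246, 247, 262 and 281 CPM, against 25.9, 23.1, 32.5, 31.7 and 30.7 CPM in controls. With ABX the anti-CD40 mice had 344, 328, 277, 315 and 313 CPM, against 23.5, 37, 32.6, 20.5 and 26.2 CPM in controls. This was the steepest rise in the class II part, 8.87-fold without ABX and 11.3-fold with ABX, with no overlap between groups. Its log2 fold changes were 3.15 ± 0.12 (edgeR adjusted p = 1.22e-16) and 3.5 ± 0.13 (edgeR adjusted p = 1.67e-17).

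The other 2 rows of the class II part lie over genes not known for presentation. Brd2, a bromodomain reader of acetylated histones, was counted at 85.9, 77.1, 76.6, 74.8 and 66 CPM in anti-CD40 mice and 59.6, 63.2, 50, 63 and 54.7 CPM in controls, and at 101, 75, 90.2, 74.8 and 75.5 CPM in anti-CD40 mice and 53.3, 73.4, 60.8, 57.6 and 56 CPM in controls with ABX. The groups did not overlap, but the rise was small, 0.39 ± 0.10 on the log2 scale without ABX (edgeR adjusted p = 0.00185) and 0.47 ± 0.10 with ABX (edgeR adjusted p = 0.000378). The row over Rxrb, a retinoid X receptor, and Col11a2, a collagen chain, differed by -0.14 ± 0.08 without ABX and was not called there. With ABX it was called lower at -0.20 ± 0.08 (edgeR adjusted p = 0.0334), a call that was lost on leaving out any 1 of mice 2, 3, 4, 11, 12 and 13 and whose sign turned to 0.16 with library totals.

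**Figure D2:**
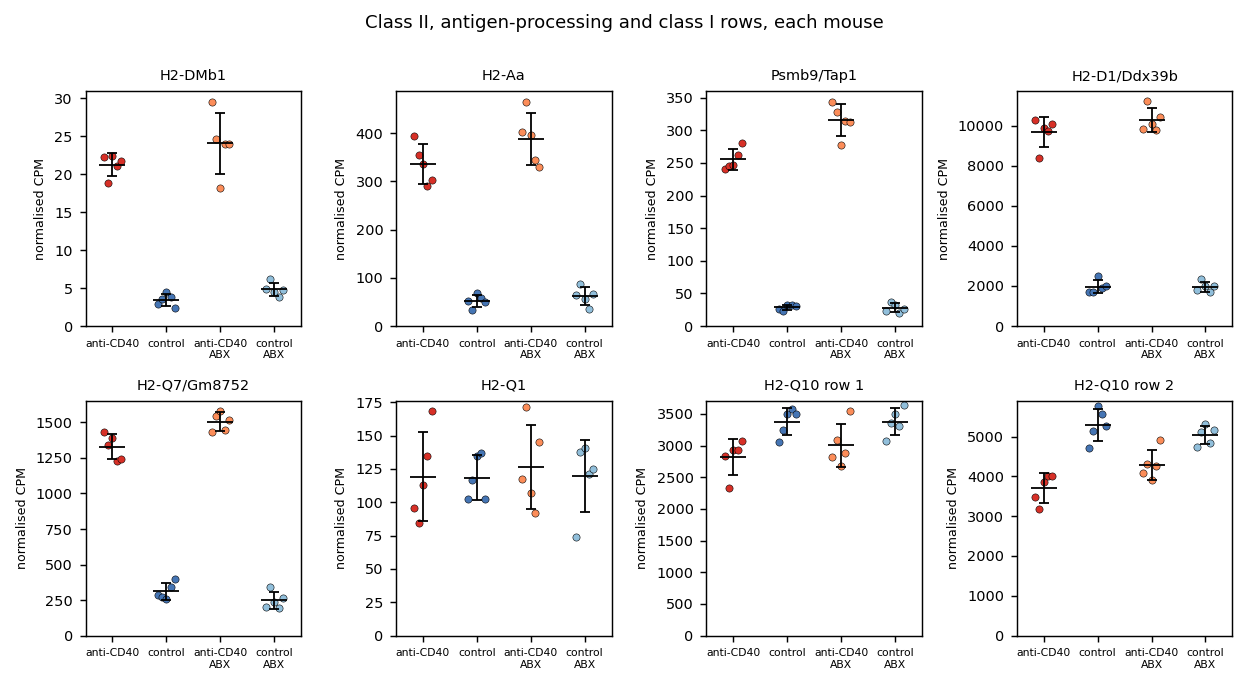
Normalised CPM (y axis, linear from 0) of each mouse for 8 rows over class II, antigen-processing and class I genes, with anti-CD40 left of control, first without and then with ABX; dashes and bars are the mean ± SD of 5 mice. The H2-DMb1, H2-Aa, Psmb9/Tap1, H2-D1/Ddx39b and H2-Q7/Gm8752 panels show anti-CD40 mice apart from controls, the H2-Q1 groups overlap, and the 2 H2-Q10 rows, numbered by their order along the chromosome, have lower means in anti-CD40 mice, most plainly row 2 without ABX.

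Among class I genes the rows over H2-D1 and H2-Q7 rose several-fold with anti-CD40, H2-Q1 did not pass the test, and H2-Q10 was slightly lower. Members of this family are close copies, and the counting command in the file headers sets no option for reads that map to several places, so assignment of these reads to 1 gene is uncertain.

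H2-D1, a classical class I heavy chain, shares its row with the RNA helicase gene Ddx39b (35243036 to 35273655), which lent 108 bp of exon beside 1576 bp of H2-D1. Its levels were 10287, 8376, 9863, 9759 and 10099 CPM in anti-CD40 mice and 1721, 1723, 2497, 1910 and 1979 CPM in controls. With ABX they were 9826, 11236, 10094, 9799 and 10456 CPM in anti-CD40 mice and 1776, 2331, 1976, 1690 and 2021 CPM in controls. The groups stood apart in both settings, by 4.92-fold without ABX (log2 2.30 ± 0.11, edgeR adjusted p = 1.73e-15) and 5.25-fold with ABX (log2 2.39 ± 0.11, edgeR adjusted p = 1.1e-15). A separate row over Ddx39b, Atp6v1g2 and Gm22589 differed far less, by 0.40 ± 0.16 without ABX (edgeR adjusted p = 0.0338) and -0.06 ± 0.16 with ABX.

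H2-Q7 is a nonclassical class I gene of the Qa-2 group, and its row (35435096 to 35448837) also touches the processed pseudogene Gm8752. Anti-CD40 mice had 1436, 1344, 1394, 1232 and 1246 CPM, against 282, 274, 259.8, 342 and 399 CPM in controls. With ABX anti-CD40 mice had 1433, 1549, 1583, 1445 and 1520 CPM, against 204, 344, 233, 196 and 262 CPM in controls. No anti-CD40 mouse came near a control. The rise was 4.27-fold without ABX (log2 2.09 ± 0.13, edgeR adjusted p = 5.8e-13) and 6.08-fold with ABX (log2 2.60 ± 0.13, edgeR adjusted p = 1.87e-14), and the difference between those effects, 0.51 ± 0.18, did not pass (edgeR adjusted p = 0.0827).

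H2-Q10 encodes a class I molecule that the liver secretes, and 2 rows lie over it, of which the one starting at 35470069 is the cleaner, with 540 of its 560 counted bases in H2-Q10 exons. That row gave 3480, 3173, 3868, 4003 and 4013 CPM in anti-CD40 mice and 4706, 5133, 5771, 5560 and 5278 CPM in controls. With ABX it gave 4088, 4302, 3920, 4269 and 4914 CPM in anti-CD40 mice and 4750, 5112, 5314, 4845 and 5171 CPM in controls. Anti-CD40 mice lay below every control without ABX, and with ABX only mouse 15 reached into the range of controls. The log2 fold change was -0.51 ± 0.08 without ABX (edgeR adjusted p = 1.2e-05), 1.43-fold lower, and -0.23 ± 0.08 with ABX (edgeR adjusted p = 0.0261). The other row, starting at 35464249, lies over 875 bp of noncoding H2-Q10 exon and differed by -0.26 ± 0.09 (edgeR adjusted p = 0.0132) and -0.17 ± 0.09 (edgeR adjusted p = 0.116). With library totals the ABX values of these rows turned to 0.12 and 0.18, so the direction of H2-Q10 with ABX depends on the scaling, and without ABX the row starting at 35464249 was at -0.02 with library totals and -0.32 with plate column as a term, called in neither. The ABX call of the row starting at 35470069 was also lost on leaving out any 1 of mice 3, 5, 11, 12 and 13.

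The row over H2-Q1, another class I gene of the Q cluster, showed no such rise: 95.5, 84.7, 113, 134 and 168 CPM in anti-CD40 mice and 102, 117, 134, 137 and 102 CPM in controls. With ABX it showed 118, 171, 107, 92.1 and 145 CPM in anti-CD40 mice and 73.9, 138, 141, 121 and 125 CPM in controls. The groups overlapped on both sides, and the differences of 0.01 ± 0.20 (edgeR adjusted p = 0.975) and 0.08 ± 0.20 (edgeR adjusted p = 0.766) were within their errors. The row over H2-M5, a nonclassical class I gene, was shared with Gabbr1, a receptor for GABA, and Ppp1r11, a phosphatase inhibitor. It was called higher without ABX at 0.27 ± 0.11 (edgeR adjusted p = 0.0407), a call lost on leaving out any 1 of mice 6, 8, 10, 12, 16 and 18, and stood at 0.14 ± 0.12 with ABX.

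Of 4 tested rows with low counts over predicted genes in the class I parts, those over Gm4152, Gm11131 and Gm8909/Gm20478 were called higher in both contrasts and that over Gm8750 in neither. The H2-K part was represented by 1 row, over 14 bp of the processed pseudogene Gm4152, with 95.7% of its counted bases outside exons. It gave 7.33, 5.37, 5.98, 5.36 and 2.5 CPM in anti-CD40 mice, against 1.53, 0.796, 1.01, 0.596 and 0.336 CPM in controls. With ABX the levels were 7.71, 5.3, 9.57, 8.28 and 9.1 CPM in anti-CD40 mice, against 1.14, 1.27, 3.36, 1.23 and 2.58 CPM in controls. Controls held only 2 to 11 counts each without ABX and 7 to 18 with ABX. The row reached the filter only through anti-CD40 mice, so its log2 fold changes of 2.58 ± 0.36 and 2.07 ± 0.32 are given as a description, and nothing rests on them. Gm11131, annotated as antisense in the Q cluster, rose by 2.43 ± 0.27 without ABX and 1.80 ± 0.24 with ABX, and the row over Gm8909, annotated as protein coding, and the antisense Gm20478 by 2.02 ± 0.23 and 1.74 ± 0.22. Since counting used no strand, reads of these antisense annotations cannot be told apart from those of genes on the other strand. The pseudogene Gm8750 was not called, at 0.40 ± 0.34 and 0.44 ± 0.33.

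In the class III part the largest change among the tested rows of the region and a complement interval stood out, while most other rows moved by less than 1 on the log2 scale. The row over Vars, the valyl-tRNA synthetase, Lsm2, a subunit of the Lsm ring that works in RNA decay and splicing, and the antisense Gm10501 (34980494 to 35009743) had 1557, 1567, 1890, 2102 and 1743 CPM in anti-CD40 mice and 93.5, 82, 113, 92 and 98.9 CPM in controls. With ABX it had 1737, 2165, 1844, 2092 and 2251 CPM in anti-CD40 mice and 113, 74, 88.6, 73.4 and 81.4 CPM in controls. The row was 18.5-fold higher without ABX (log2 4.21 ± 0.13, edgeR adjusted p = 7.56e-19) and 23.4-fold higher with ABX (log2 4.55 ± 0.13, edgeR adjusted p = 2.57e-19), with no overlap. Of its 12919 counted bases, 86.1% lay outside annotated exons, so the rise cannot be given to Vars or Lsm2. The next row, over a further 860 bp of Vars exon and 5 other genes, rose less, by 1.51 ± 0.08 without ABX (edgeR adjusted p = 2.83e-14) and 1.55 ± 0.08 with ABX (edgeR adjusted p = 2.35e-14).

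Complement factor B (Cfb), the protease of the alternative pathway convertase and a product of hepatocytes, shares a row with Gm20547 and Dxo, an RNA decapping enzyme (34837871 to 34859046). Dxo lent 186 bp of coding exon and Cfb 38 bp. Anti-CD40 mice had 3762, 2760, 3328, 3811 and 3228 CPM, against 697, 639, 986, 653 and 718 CPM in controls. With ABX anti-CD40 mice had 3288, 3552, 3263, 3328 and 3297 CPM, against 622, 774, 729, 682 and 704 CPM in controls. Every anti-CD40 mouse was above every control, 4.57-fold without ABX (log2 2.19 ± 0.11, edgeR adjusted p = 6.33e-15) and 4.76-fold with ABX (log2 2.25 ± 0.11, edgeR adjusted p = 5.81e-15). Reads of Dxo and Cfb cannot be told apart in it.

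The tumour necrosis factor cluster was seen through 2 rows. One covers Prrc2a, a broadly expressed gene, together with Lst1 and Aif1, both known from myeloid cells, and Ncr3-ps. It had 232, 225, 266, 242 and 243 CPM in anti-CD40 mice and 159, 175, 199, 181 and 169 CPM in controls. With ABX it had 217, 231, 223, 200.4 and 221 CPM in anti-CD40 mice and 151, 170.2, 180, 148 and 178 CPM in controls. There was no overlap and a modest rise, 0.45 ± 0.08 (edgeR adjusted p = 1.63e-05) and 0.40 ± 0.08 (edgeR adjusted p = 9.49e-05). Ltb, the membrane anchor of lymphotoxin, did not reach the filter: it had 9, 8, 6, 6 and 10 counts in anti-CD40 mice and 0, 0, 1, 0 and 1 counts in controls, and 7, 5, 13, 6 and 0 counts in anti-CD40 mice and 1, 1, 0, 2 and 0 counts in controls with ABX. Counts were higher in anti-CD40 mice apart from mouse 15, which had none. The row had 6 counts in the 10 control mice, so it became a member only through anti-CD40 mice, and its difference is a description on which nothing rests. Of its counted bases, 95.8% lay outside annotated exons. An edgeR fit with no filter on low counts gave 3.86 ± 0.82 without ABX (edgeR adjusted p = 0.000194) and 2.68 ± 0.77 with ABX (edgeR adjusted p = 0.0052). That fit called 40.9% and 35.2% of its 8751 rows.

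**Figure D3:**
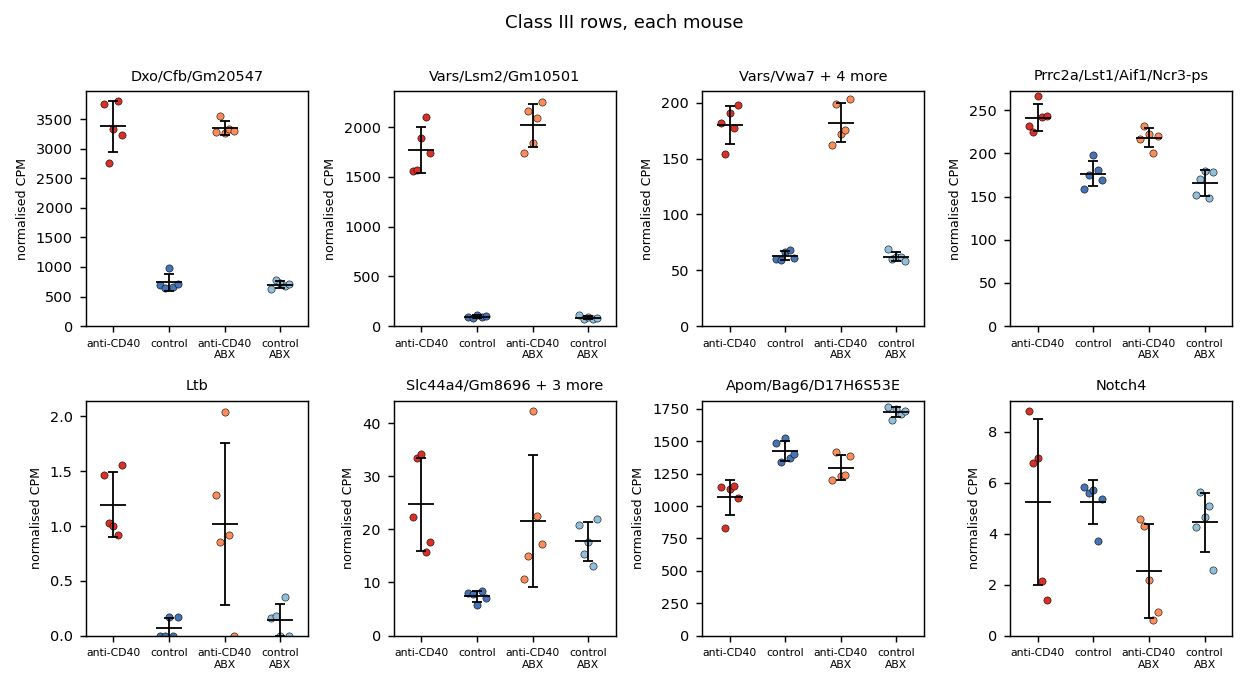
Normalised CPM (y axis, linear from 0) of each mouse for 8 rows of the class III part, with anti-CD40 left of control, first without and then with ABX; dashes and bars are the mean ± SD of 5 mice. Anti-CD40 mice stand apart from controls in the Dxo/Cfb/Gm20547, both Vars and the Prrc2a/Lst1/Aif1/Ncr3-ps panels, they lie below controls in the Apom/Bag6/D17H6S53E panel, and the Notch4 groups overlap.

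Apom, the apolipoprotein that carries sphingosine 1-phosphate, and Bag6, a chaperone of tail-anchored proteins, share the 1 row of the class III part that was called lower, without ABX and with it. It had 1148, 829, 1135, 1157 and 1065 CPM in anti-CD40 mice and 1490, 1337, 1522, 1372 and 1401 CPM in controls. With ABX it had 1201, 1415, 1232, 1243 and 1388 CPM in anti-CD40 mice and 1764, 1661, 1753, 1715 and 1736 CPM in controls. The groups did not overlap, and the row was lower by 1.34-fold without ABX (log2 -0.42 ± 0.08, edgeR adjusted p = 0.000139) and by 1.33-fold with ABX (log2 -0.41 ± 0.08, edgeR adjusted p = 0.000181). With library totals the ABX value was -0.07 and no longer called, and a fit with plate column as a term called neither value, at -0.27 and -0.35.

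Notch4, a Notch receptor of endothelial cells, was not called, and its values, looked at after they were seen, were uneven within groups. They were 8.8, 6.78, 6.98, 2.14 and 1.4 CPM in anti-CD40 mice and 5.85, 5.58, 5.72, 3.72 and 5.37 CPM in controls. With ABX they were 4.59, 4.28, 2.2, 0.613 and 0.926 CPM in anti-CD40 mice and 4.24, 5.65, 4.66, 5.08 and 2.58 CPM in controls. Among anti-CD40 mice, 19, 20, 14 and 15 were low, and mouse 13 at 2.2 CPM was about level with mouse 19 at 2.14 CPM. The differences were -0.01 ± 0.43 (edgeR adjusted p = 0.991) and -0.85 ± 0.48 (edgeR adjusted p = 0.149). Without mice 14, 15, 19 and 20, 28 member rows were called higher and 3 lower without ABX and 22 higher and 5 lower with ABX. Of all 5628 rows tested then, 26.3% were called higher and 25.6% lower without ABX, and 23.5% higher and 21% lower with ABX. The other 4 class III rows, over Abhd16a/Csnk2b/Gpank1, Ppt2/Gm20460/Notch4/Prrt1, D17H6S53E/Gpank1/Csnk2b/Apom and Ddx39b/Atp6v1g2/Gm22589, lay between -0.06 and 0.40 on the log2 scale in both contrasts, and the first of them was called higher in both.

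Among rows over genes not known for presentation, Myo1f in the proximal flank and several framework rows between the Q and T clusters were called higher in both contrasts. Abcf1 and the interval from Gm20483 to Sfta2, between the same clusters, were called in neither. Myo1f, an unconventional myosin of immune cells, had 16.1, 16.8, 23.6, 12.6 and 7.8 CPM in anti-CD40 mice and 1.67, 1.59, 2.69, 1.49 and 2.85 CPM in controls. With ABX it had 13.6, 10.3, 11.5, 8.74 and 9.1 CPM in anti-CD40 mice and 2.28, 2.19, 1.87, 1.05 and 2.21 CPM in controls. The groups did not overlap and differed by 7.47-fold without ABX (log2 2.90 ± 0.26, edgeR adjusted p = 7.91e-10) and 5.48-fold with ABX (log2 2.45 ± 0.28, edgeR adjusted p = 4.25e-08). Of the counted bases of the Myo1f row, 91.3% lay outside annotated exons, so the rise need not be that of Myo1f. Ppp1r18, an actin-binding protein that targets protein phosphatase 1, had 4.73, 5.75, 5.82, 3.98 and 2.65 CPM in anti-CD40 mice and 0.278, 0.796, 0.841, 0.596 and 0.504 CPM in controls. With ABX the row gave 4.96, 4.62, 2.83, 3.99 and 4.63 CPM in anti-CD40 mice and 0.815, 1.64, 1.31, 1.4 and 0.368 CPM in controls. Controls held 2 to 5 counts each without ABX and 2 to 9 with ABX, and no control library reached the filter's minimum. The row was therefore tested only because of its anti-CD40 mice, and its log2 fold changes of 2.91 ± 0.35 and 1.91 ± 0.33 are a description on which nothing rests. It touches 36 bp of Ppp1r18 exon and lies within the span of a Dhx16 row that stood at 0.21 ± 0.08 and 0.09 ± 0.08.

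Before Ppp1r18 on the chromosome, 3 tested rows over Flot1, Tubb5 and Mdc1 were called higher in both contrasts. The Flot1 row starting at 35816717, over a scaffold protein of membrane microdomains, differed by 2.01 ± 0.20 without ABX and 2.0 ± 0.20 with ABX. The smaller Flot1 row, left out by the filter, held 21 counts in anti-CD40 mice against 5 in controls without ABX. With ABX it held 31 counts in anti-CD40 mice against 6 in controls. That smaller row became a member only through anti-CD40 mice, so its difference is a description on which nothing rests. The interval over Tubb5 (a beta tubulin), Nrm, Flot1, Ier3 (an early response gene) and Mdc1 rose by 1.40 ± 0.10 and 1.08 ± 0.09, and that over Nrm, Mdc1 and Ppp1r18 by 1.5 ± 0.16 and 1.45 ± 0.16. The largest edgeR adjusted p of these 3 rows was 1.35e-07. The 3 rows over Gnl1, a predicted GTP-binding protein, rose by 0.44 to 0.69 without ABX and by 0.50 to 0.66 with ABX and were called each time.

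Fewer rows fell. Rnf39, a RING finger protein, had 5.7, 2.43, 3.16, 2.91 and 4.21 CPM in anti-CD40 mice and 7.93, 6.85, 2.19, 6.7 and 4.7 CPM in controls. With ABX the levels were 2.57, 3.77, 3.77, 4.75 and 3.7 CPM in anti-CD40 mice and 6.03, 8.74, 7.09, 8.23 and 12.3 CPM in controls. The groups overlapped without ABX, where the difference of -0.64 ± 0.28 was not called (edgeR adjusted p = 0.0561), and stood apart with ABX, at -1.18 ± 0.28 (edgeR adjusted p = 0.000996). With plate column as a term the ABX value was again -1.18 and was not called. Of the counted bases of the Rnf39 row, 89.1% lay outside annotated exons. Adamts10, a secreted metalloprotease, had 0.652, 1.92, 1.83, 2.3 and 1.25 CPM in anti-CD40 mice and 1.95, 2.71, 3.7, 0.744 and 2.35 CPM in controls. With ABX the levels were 1.84, 1.03, 0.942, 0.92 and 1.23 CPM in anti-CD40 mice and 2.77, 2.19, 2.05, 1.4 and 3.13 CPM in controls. Its groups overlapped in both settings, and the ABX call of -0.96 ± 0.39 (edgeR adjusted p = 0.0423) was lost on leaving out any 1 of mice 1, 2, 3, 5, 12, 13, 14 and 15. Only 4 anti-CD40 libraries passed the filter's minimum, against 8 control libraries, where 5 were needed. The row was therefore tested only because of its control mice, and its difference is a description on which nothing rests. The row over Trim39, a ubiquitin ligase, Rpp21, a subunit of RNase P, and Gm20546 was called lower with ABX, at -0.29 ± 0.08 (edgeR adjusted p = 0.00487), against 0.03 ± 0.08 without, and with library totals the ABX value was 0.06.

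The remaining tested rows of the distal class I part moved little. Those over Dhx16, an RNA helicase of splicing, were called higher without ABX, at 0.21 ± 0.08 (edgeR adjusted p = 0.031) and 0.42 ± 0.13 (edgeR adjusted p = 0.00845), and not with ABX, at 0.09 ± 0.08 and -0.06 ± 0.13. The same held for the row over Atat1, the alpha tubulin acetyltransferase, Gm16279 and Mrps18b, at 0.28 ± 0.11 (edgeR adjusted p = 0.032) and 0.02 ± 0.11. Tcf19, a nuclear protein with a PHD finger, was called higher with ABX, at 0.71 ± 0.28 (edgeR adjusted p = 0.0382), and stood at 0.07 ± 0.28 without. Abcf1, an ABC protein that acts in translation, stood at 0.00 ± 0.12 and 0.01 ± 0.12, and the interval over Gm20483, Vars2, Gtf2h4, Mucl3, Gm9573, Ddr1 and Sfta2 at -0.15 ± 0.09 and -0.22 ± 0.09, neither called.

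Of the rows left out by the filter, H2-Bl, a class I gene of the T cluster annotated as a polymorphic pseudogene, held 7, 14, 8, 4 and 8 counts in anti-CD40 mice and 2, 4, 2, 1 and 1 counts in controls, and 5, 5, 6, 4 and 5 counts in anti-CD40 mice and 2, 2, 5, 3 and 5 counts in controls with ABX. Its row touches 93 bp of exon, and 94.5% of its counted bases lay outside exons. The ratio of summed counts per fragment was 4.76 without ABX, with an exact binomial 95% interval of 2.34 to 10.6, and 1.72 with ABX, with an interval of 0.892 to 3.39. These intervals cover counting error only. With no filter edgeR gave 1.9 ± 0.51 (edgeR adjusted p = 0.00261) and 0.42 ± 0.5 (edgeR adjusted p = 0.563). For H2-T10/BC023719, where H2-T10 is also annotated as a polymorphic pseudogene, the sums were 10 in anti-CD40 mice and 3 in controls, and 10 in anti-CD40 mice and 5 in controls with ABX. For Gm5682 they were 17 and 10, and 16 and 3 with ABX, in the same order of groups. The interval of the Gm5682 ratio included 1 without ABX, at 0.853 to 4.82, and not with ABX, at 1.79 to 33.4. Gm5682 and H2-T10/BC023719 became members only through anti-CD40 mice, so their ratios are a description on which nothing rests. The intervals of the ratios included 1 in both contrasts for H2-T10/BC023719, at 0.996 to 21.9 and 0.728 to 8.72, and for Rgl2, Egfl8/Gm20460, Ly6g6d, Gm17705, Ppp1r18os/Nrm and 1700031A10Rik/Trim31, whose group sums ran between 3 and 44 counts.

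The anti-CD40 effect differed detectably with ABX in few rows of the region. The difference between the anti-CD40 effects with and without ABX was called for 2 of the 46 tested rows, both lower with ABX, against 6.81% of all tested rows of the table (3.85% higher and 2.96% lower). No row was called with a larger effect under ABX by edgeR or by DESeq2, and 4 had such a difference at an unadjusted p under 0.05. ABX over no ABX within controls was called for 5 rows, all higher and 2 of them 2-fold or more, against 5.71% of all tested rows (3.04% higher, 2.67% lower and 1.27% called at 2-fold or more). No row was called lower by edgeR or by DESeq2, and 1 was lower at an unadjusted p under 0.05. Within anti-CD40 mice ABX was called for 3 rows, 1 higher and 2 lower and none 2-fold, against 14% of all tested rows (7.75% higher, 6.22% lower and 3.15% called at 2-fold or more). The ABX groups did not overlap in 3 rows in controls and in 4 rows in anti-CD40 mice, against 6.09% and 9.72% of all tested rows. These comparisons share mice with one another. No member row was called in any of these 3 comparisons once plate column was a term. That fit called few rows anywhere: 0.0184% of all tested rows for the difference, 2.67% for ABX in controls and 0.423% for ABX in anti-CD40 mice. With library totals, 1 row was called higher and 1 lower for the difference, and none higher and 2 lower for ABX in controls. That scaling called 4.58% of all tested rows higher and 1.34% lower for the difference, and 1.34% higher and 5.63% lower for ABX in controls.

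Both rows with a called difference lie over Ppp1r10, the nuclear targeting subunit of protein phosphatase 1. The row over Ppp1r10 alone (35918066 to 35930773) gave 49.6, 61.8, 66.2, 84.9 and 48.8 CPM in controls with ABX and 40.6, 33.3, 50, 43.9 and 36.8 CPM in controls without, and 66.1, 55.4, 84.4, 55.8 and 72.8 CPM in anti-CD40 mice with ABX and 94.7, 64.3, 87.1, 82.7 and 61.6 CPM in anti-CD40 mice without. Anti-CD40 mice without ABX all lay above controls without ABX, whereas the ABX groups overlapped. The anti-CD40 effect was 0.93 ± 0.16 without ABX (edgeR adjusted p = 4.54e-05), against 0.10 ± 0.16 with ABX (edgeR adjusted p = 0.611). The difference of -0.83 ± 0.23 was called (edgeR adjusted p = 0.0343), and so was the effect of ABX in controls, 0.61 ± 0.16 (edgeR adjusted p = 0.0322), though the 2 control groups overlapped. The first of these calls was lost on leaving out any 1 of mice 3, 4, 6, 7, 10, 11, 12, 14, 16, 18 and 19, and the second on leaving out any 1 of mice 2, 3, 4, 6, 7, 9 and 10.

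The neighbouring row over Ppp1r10, the mitochondrial ribosomal protein gene Mrps18b and Mir1894 gave 171, 182, 186, 191 and 173 CPM in controls with ABX and 157, 157, 168, 193 and 168 CPM in controls without, and 202, 194, 219, 182 and 221 CPM in anti-CD40 mice with ABX and 251, 212, 237, 259 and 259.5 CPM in anti-CD40 mice without. The difference between the anti-CD40 effects was -0.36 ± 0.11 (edgeR adjusted p = 0.0474), and within anti-CD40 mice ABX went with a value of -0.26 ± 0.08 (edgeR adjusted p = 0.0255). Without ABX the anti-CD40 mice all lay above the controls, and in the other pairs the groups overlapped. Leaving out any 1 mouse other than 9, 13, 15 and 17 ended the first of these calls, and leaving out any 1 of mice 11, 12, 14, 16, 19 and 20 ended the second.

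Hspa1b, an inducible heat shock protein of the Hsp70 family, shares a row with Slc44a4, Gm8696, 1110038B12Rik and Gm25744. This row gave 20.9, 15.3, 17.5, 13.1 and 21.9 CPM in controls with ABX and 7.93, 7.8, 5.72, 8.34 and 7.05 CPM in controls without, and 10.7, 14.9, 42.4, 22.5 and 17.3 CPM in anti-CD40 mice with ABX and 22.3, 33.5, 34.2, 15.8 and 17.6 CPM in anti-CD40 mice without. Controls without ABX were the lowest group and overlapped none of the other groups, which overlapped one another. Anti-CD40 was called higher without ABX, at 1.74 ± 0.32 (edgeR adjusted p = 0.000141), and not with ABX, at 0.29 ± 0.30 (edgeR adjusted p = 0.459). The difference of -1.45 ± 0.44 did not pass the threshold (edgeR adjusted p = 0.0559), whereas ABX in controls did, at 1.26 ± 0.33 (edgeR adjusted p = 0.0314), a call lost on leaving out any 1 of mice 1, 3, 5, 6, 7, 8, 9 and 10. Without ABX the anti-CD40 value was 1.53 and not called once plate column was a term.

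**Figure D4:**
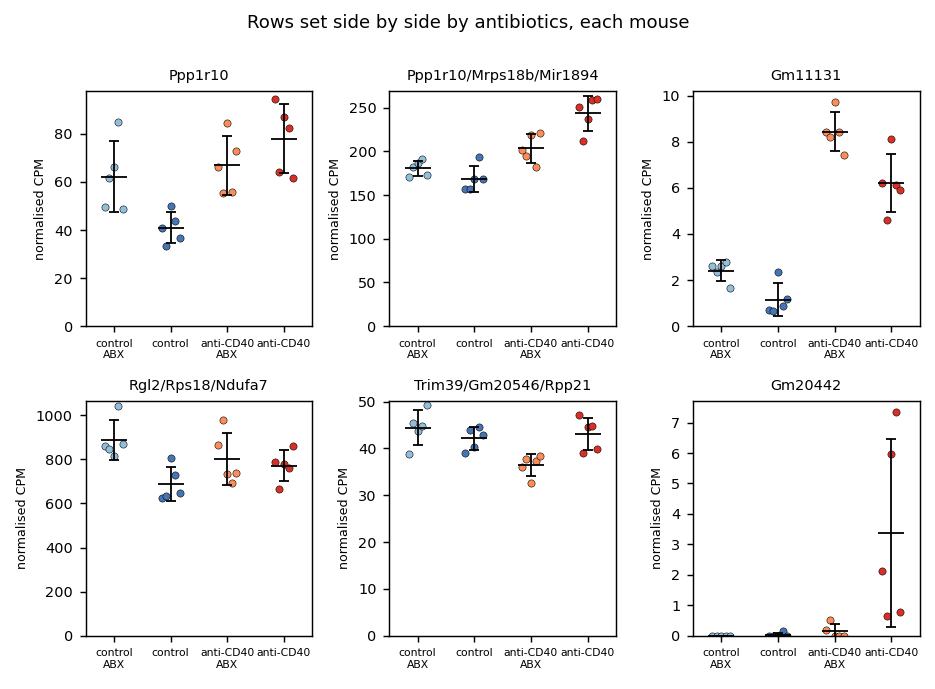
Normalised CPM (y axis, linear from 0) of each mouse for 6 rows, with ABX left of no ABX, first for controls and then for anti-CD40 mice; dashes and bars are the mean ± SD of 5 mice. In the Ppp1r10 panel the controls without ABX are lowest, and in the Gm20442 panel counts are almost confined to anti-CD40 mice without ABX, of which mice 18 and 19 are highest.

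The other rows called for ABX changed little or had few counts. In controls these were Gm11131 at 1.08 ± 0.30 (edgeR adjusted p = 0.034), the row over Rgl2, the ribosomal protein gene Rps18 and the respiratory chain gene Ndufa7 at 0.37 ± 0.10 (edgeR adjusted p = 0.0282), and Apom/Bag6/D17H6S53E at 0.28 ± 0.08 (edgeR adjusted p = 0.0499). In anti-CD40 mice they were Apom/Bag6/D17H6S53E again, at 0.28 ± 0.08 (edgeR adjusted p = 0.0255), and Trim39/Gm20546/Rpp21 at -0.24 ± 0.08 (edgeR adjusted p = 0.046). The Gm11131 call was lost on leaving out any 1 of mice 1, 2, 3, 4, 6, 7, 9 and 10, the Rgl2/Rps18/Ndufa7 call without any 1 of mice 4, 5, 6, 7 and 10, and the Apom/Bag6/D17H6S53E call in controls without any 1 mouse other than 8 and 17. In anti-CD40 mice the Apom/Bag6/D17H6S53E call was lost without mouse 12, 15 or 17, and the Trim39/Gm20546/Rpp21 call without any 1 mouse other than 1, 5, 17 and 20. Within plate column 3, which holds all controls with ABX and 3 without, the log2 ratios of ABX over no ABX were 0.59 for Ppp1r10, 1.25 for the Hspa1b row, 0.75 for Gm11131, 0.37 for Rgl2/Rps18/Ndufa7 and 0.25 for Apom/Bag6/D17H6S53E. Within column 4, which holds all anti-CD40 mice with ABX and mouse 16 without, they were 0.18 for Apom/Bag6/D17H6S53E, -0.37 for Trim39/Gm20546/Rpp21 and -0.3 for Ppp1r10/Mrps18b/Mir1894. The same libraries made these calls, 8 of 10 in controls, so the values are a description and no separate check. The presentation rows were not called for ABX in either setting: H2-Aa differed by 0.24 ± 0.19 in controls and 0.21 ± 0.18 in anti-CD40 mice, Psmb9/Tap1 by -0.04 ± 0.13 and 0.30 ± 0.11, and H2-D1/Ddx39b by 0.00 ± 0.10 and 0.09 ± 0.10.

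Gm20442, a long intergenic noncoding RNA gene, did not pass the filter on low counts and was looked at after its values were seen. Its row had 1, 3, 0, 0 and 0 counts in anti-CD40 mice with ABX, against 13, 5, 36, 48 and 5 counts in anti-CD40 mice without. Controls had 0, 0, 0, 0 and 0 counts with ABX and 0, 0, 0, 1 and 0 counts without. Counts were thus seen almost entirely in the 5 anti-CD40 mice without ABX and ranged widely among them. The row became a member through those 107 counts, so the difference is a description on which nothing rests. With no filter, edgeR called it for ABX within anti-CD40 mice (log2 -4.46 ± 0.87, edgeR adjusted p = 0.00204) and for anti-CD40 without ABX (log2 6.03 ± 1.03, edgeR adjusted p = 5.83e-05), where 8.2% and 40.9% of all rows of that fit were called. With the controls near 0, the size of the second value depends on the prior count.

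Genes of the same pathways outside the region were covered poorly by this counting. Among listed targets of interferon gamma, 3 inducible GTPases had a tested row of their own, Irgm2, Tgtp1 and Tgtp2, of which Tgtp1 and Tgtp2 are close copies whose reads may be shared. All 3 were called higher with anti-CD40 in both contrasts. Irgm2 differed by 2.58 ± 0.19 without ABX (edgeR adjusted p = 2.65e-10) and 3.43 ± 0.19 with ABX (edgeR adjusted p = 3.17e-12), and Tgtp1 by 5.65 ± 0.21 (edgeR adjusted p = 2.18e-15) and 6.35 ± 0.21 (edgeR adjusted p = 7.36e-16). Tgtp2 differed by 5.0 ± 0.14 (edgeR adjusted p = 1.78e-19) and 6.03 ± 0.15 (edgeR adjusted p = 6.39e-21), and it was the 1 of the 3 whose anti-CD40 effects were called different, at 1.03 ± 0.20 (edgeR adjusted p = 0.00308). That call was lost with plate column as a term, where no row of the whole table was called with a larger effect under ABX. ABX within anti-CD40 mice was called higher for all 3, at 0.98 to 1.2, and in controls the 3 differed by 0.17 to 0.28 and were not called by edgeR. For ABX within anti-CD40 mice 7.75% of all tested rows were called higher, and 0.239% with plate column as a term. None of the 14 class II partners on the list, and of the 10 class I partners only the chaperone Canx, had a tested row. The Canx row with 247 bp of exon rose by 0.34 ± 0.08 without ABX (edgeR adjusted p = 0.00046) and 0.22 ± 0.08 with ABX (edgeR adjusted p = 0.0172). A Canx row with 80 bp of exon differed by 0.55 ± 0.27 without ABX (edgeR adjusted p = 0.0784) and was lower with ABX, at -0.78 ± 0.26 (edgeR adjusted p = 0.013). Of 19 complement genes elsewhere, only Cfd, an adipocyte product, was tested, and it was lower at -3.71 ± 0.93 without ABX (edgeR adjusted p = 0.00246) and not called with ABX, at -0.02 ± 0.97.

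Markers of cell types moved with these results, and their part in them was not tested. Liver identity was plain, with 3 of 8 hepatocyte markers tested, and the summed level of Alb, Asgr1 and Cps1 was 45794 to 70849 CPM in anti-CD40 mice and 154327 to 179214 CPM in controls, and 71086 to 98990 CPM and 173546 to 262300 CPM with ABX in the same order. All 4 rows were called lower in both contrasts. Most of that sum was Alb, at 44774 to 69706 CPM in anti-CD40 mice without ABX. Alb differed by -1.4 ± 0.12 without ABX and -1.34 ± 0.12 with ABX, and Asgr1 by only -0.3 ± 0.09 and -0.25 ± 0.09. The 2 Cps1 rows differed by -2.35 and -2.27 without ABX and by -1.84 and -1.85 with ABX. Monocyte and macrophage markers were represented by 2 of 8, Lyz2 and Ms4a7, whose sum was 241 to 970 CPM in anti-CD40 mice and 91.7 to 204 CPM in controls, and 281 to 902 CPM and 93.9 to 132 CPM with ABX; both rows were called higher in both contrasts. T cell markers were represented by 2 of 8, Cd8a and Cd8b1, whose sum was 2.81 to 6.91 CPM in anti-CD40 mice and 0.418 to 1.19 CPM in controls, and 3.31 to 6.9 CPM and 0 to 0.815 CPM with ABX, again called higher throughout. B cell markers were represented by Cd79b alone of 8, at 1.56 to 3.82 CPM in anti-CD40 mice and 1.64 to 3.2 CPM in controls, and 2.31 to 5.48 CPM and 1.79 to 3.15 CPM with ABX, and it was not called.

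Of 7 Kupffer cell markers 2 were tested: Adgre1 was called lower in both contrasts, and Marco was called higher with ABX. Sinusoidal endothelial markers, 3 of 6 in 4 rows of which 2 were called lower without ABX and 3 with ABX, summed to 25.3 to 101 CPM in anti-CD40 mice and 96.7 to 147 CPM in controls, and 14.5 to 71.1 CPM and 90.5 to 112 CPM with ABX. Both rows called lower without ABX lie over the same gene, Stab2, at -3.7 ± 0.29 and -2.75 ± 0.38. Pecam1 at -0.19 ± 0.52 and Stab1 at 0.14 ± 0.25 were not called there. With ABX both Stab2 rows and Stab1, at -0.66 ± 0.27, were called lower, and Pecam1 was not called. Stellate cell markers, 2 of 6 in 4 rows of which 0 were called without ABX and 4 lower with ABX, summed to 17.4 to 130 CPM in anti-CD40 mice and 101 to 216 CPM in controls, and 6.79 to 51.7 CPM and 75.1 to 188 CPM with ABX. All of these rows but the one over Lum lie over Col3a1. Cholangiocyte markers, 2 of 5 with 1 called higher and 1 lower without ABX and 1 higher with ABX, summed to 13.2 to 26.3 CPM in anti-CD40 mice and 3.19 to 5.38 CPM in controls, and 7.9 to 9.42 CPM and 1.68 to 4.24 CPM with ABX. The 2 went opposite ways, Sox9 at 3.05 ± 0.25 without ABX and 2.43 ± 0.29 with ABX, and Pkhd1 at -1.19 ± 0.47 and -0.91 ± 0.47. In anti-CD40 mice without ABX most of the sum was Sox9, at 12.4 to 24.9 CPM. Plasma cell markers, Ighm and Xbp1 of 5, with Xbp1 called higher without ABX and both with ABX, summed to 358 to 485 CPM in anti-CD40 mice and 244 to 428 CPM in controls, and 333 to 407 CPM and 216 to 323 CPM with ABX. Most of that sum was Xbp1, at 327 to 463 CPM in anti-CD40 mice without ABX. Ighm had 17.6 to 30.7 CPM there and 14.1 to 28.2 CPM in controls, and differed by 0.09 ± 0.16 (edgeR adjusted p = 0.659). With ABX Ighm differed by 0.71 ± 0.16 (edgeR adjusted p = 0.000536). The lists for dendritic cells (8 markers), natural killer cells (5) and neutrophils (6) had no tested row. No marker that had a row was at 0 in all libraries, but most markers on these lists had no row of their own.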

How the data were processed

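RNA from the snap-frozen livers of 20 individual mice was extracted with trizol, per the labels' protocols. The submitters' processing notes name Trimmomatic 0.38, a read trimmer, and HISAT2 2.1.0, an aligner. Per the file headers, the authors counted paired fragments on mm10 alignments with featureCounts 1.5.0-p2 over exons of a human annotation (Ensembl release 93), with no strand option. The deposited values are raw counts, with no normalization. A row therefore sums fragments over human intervals placed on mouse coordinates. The intervals were intersected with GENCODE M21 exons with bedtools 2.31.1. A single fit with edgeR 4.0.16 in R 4.3.3 (TMM, filterByExpr, robust quasi-likelihood) covered all groups and 5432 rows, with a biological coefficient of variation of 16.3%. Tests covered 5 contrasts: anti-CD40 over control without and with ABX, their difference, and ABX over no ABX in controls and in anti-CD40 mice. The fit was tested on simulated data. SE is the log2 fold change divided by the square root of F. Depth was 5053014 to 7618736 counted fragments a library.

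Rows named with values are those over class I, class II, antigen-processing, complement, tumour necrosis factor cluster and heat shock genes, and in each contrast the 6 rows called higher and the 6 called lower that changed most among those averaging 1 CPM or more. Rows outside this rule that are described were chosen after their values were seen. The members, gene lists and tests were chosen with earlier results of these data known. Alternatives were library totals, DESeq2 1.42.0, no filter on low counts, plate column as a term, rows over exactly 1 mouse gene by at least 50 bp, no mitochondrial rows, and leaving out each mouse. Leaving out mice 14, 15, 19 and 20 together was added after seeing the data. Some items of the gene lists are not reported here.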

Additional observations from a re-analysis of the deposited data

Results flagged for a closer look

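Within the 96 groups of 5 mice over named rows, 9 held a mouse that stood apart from the other 4 by Dixon's criterion at 95%. Chance flags about 1 in 20 such groups. Mouse 17, given anti-CD40 without ABX, was the low one in 4 of them: 90.2 CPM for Rxrb/Col11a2 where the others had 107 to 112, 829 CPM for Apom/Bag6/D17H6S53E where the others had 1065 to 1157, 8376 CPM for H2-D1/Ddx39b where the others had 9759 to 10287, and 2325 CPM for the H2-Q10 row starting at 35464249 where the others had 2836 to 3066. These low values depend on the scaling: the TMM factor of mouse 17 was 1.32, against 1.05 to 1.12 in the other 4. With library totals mouse 17 had 119.1 CPM for Rxrb/Col11a2 against 112.7 to 124.4 in the others, and 3072 CPM for the H2-Q10 row against 3049 to 3277, inside their ranges. It was then the highest for H2-D1/Ddx39b, at 11065 CPM against 10264 to 11059, and was still below them for Apom/Bag6/D17H6S53E, at 1095 CPM against 1138 to 1267. Among controls with ABX, mouse 4 was low for Myo1f at 1.05 CPM, against 1.87 to 2.28 CPM in the others, and high for Rgl2/Rps18/Ndufa7 at 1045 CPM, against 817 to 871 CPM. In the same group mouse 1 was low for H2-Q1 at 73.9 CPM, against 121 to 141 CPM. For Dxo/Cfb/Gm20547, mouse 12 was high at 3552 CPM among anti-CD40 mice with ABX, against 3263 to 3328 CPM, and mouse 8 was high at 986 CPM among controls, against 639 to 718 CPM. With library totals mouse 12 lay inside the range of the others, at 3578 CPM against 3544 to 3825, whereas mice 1, 4 and 8 lay outside it as before.

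The anti-CD40 effect differed with ABX for 2 of 46 tested rows (4.35%) by the edgeR test of the difference itself, a share under the 6.81% of all tested rows so called. It was smaller with ABX by a log2 value of -0.83 for Ppp1r10 and -0.36 for Ppp1r10/Mrps18b/Mir1894. Both rows lie over the same gene. Neither was called with plate column as a term (edgeR adjusted p = 0.167 and 0.207) or with no filter (0.0646 and 0.108), and the calls were lost on leaving out any 1 of 11 and of 16 mice.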

How the results depend on the processing

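No paired analysis was possible because the mouse numbers run from 1 to 20 and no number is shared between groups. The 20 fits that each left out 1 mouse gave 26 to 30 rows called higher and 3 to 4 lower for anti-CD40 without ABX, and 22 to 24 higher and 3 to 6 lower with ABX, where 3 lower were left without mouse 3, 12 or 13. The same fits gave 0 to 1 higher and 0 to 3 lower for the difference between those effects, 0 to 5 higher and 0 to 1 lower for ABX in controls, and 0 to 2 higher and 0 to 4 lower for ABX in anti-CD40 mice. The difference had no lower row left without mouse 3, 4, 6, 7, 10, 11, 12, 14, 16 or 18. ABX in controls had no higher row left without mouse 6, 7 or 10. ABX in anti-CD40 mice had no lower row left without mouse 11, 12, 14, 16 or 19, no higher row left without mouse 12, 15 or 17, and 4 lower rows without mouse 20.

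With library totals, anti-CD40 with ABX had 35 higher and 1 lower, the difference 1 higher and 1 lower, and ABX in controls 0 higher and 2 lower. The shares of all rows called higher and lower were 45.2% and 13.8%, 4.58% and 1.34%, and 1.34% and 5.63%, in the same order. In all, 5 values changed sign under that scaling, all for anti-CD40 with ABX: Rgl2/Rps18/Ndufa7 at 0.20, Rxrb/Col11a2 at 0.16, the H2-Q10 rows starting at 35464249 and 35470069 at 0.18 and 0.12, and Trim39/Gm20546/Rpp21 at 0.06; the median of all rows stood at 0.36. With no filter, 3 rows were lower for anti-CD40 with ABX, 0 lower for the difference, 2 higher for ABX in controls and 1 lower for ABX in anti-CD40 mice. The same calls were made for 17.1%, 1.28%, 1.74% and 3.5% of all rows of that fit, in this order. With plate column as a term, 1 row was lower for anti-CD40 without ABX and 1 with ABX, and the ABX comparisons had 0 lower for the difference, 0 higher in controls, and 0 higher and 0 lower in anti-CD40 mice. That term left 1708 and 1613 of all rows called for anti-CD40, with 15% and 15.1% of all rows called lower. It left 0.0184% of all rows called for the difference, 2.67% for ABX in controls and 0.423% for ABX in anti-CD40 mice.

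With rows over exactly 1 mouse gene, where fewer rows were tested, 10 were higher for anti-CD40 without ABX, 9 higher and 3 lower with ABX, 1 lower for the difference, 2 higher for ABX in controls, and 0 higher and 0 lower for ABX in anti-CD40 mice. Of all 2827 rows of that fit, 30.5% were called higher and 28.1% lower without ABX, and 24.9% higher and 24.7% lower with ABX. The difference was called for 6.54% of them, ABX in controls for 5.73% and ABX in anti-CD40 mice for 14.4%. Without mitochondrial rows, 1 was lower for the difference and 1 lower for ABX in anti-CD40 mice, against 2.64% and 6.01% of all rows of that fit. Without mice 14, 15, 19 and 20, 0 were lower for the difference, 2 higher for ABX in controls, and 0 higher and 1 lower for ABX in anti-CD40 mice. Of all rows of that fit, 1.24%, 2.49%, 3.78% and 2.47% were so called, in the same order. DESeq2 gave 2 higher and 1 lower for ABX in anti-CD40 mice, against 8.95% and 6.61% of all rows. The cause was not tested. For the rows over H2-Aa, H2-DMb1, Psmb9/Tap1, H2-D1/Ddx39b, H2-Q7/Gm8752, Dxo/Cfb/Gm20547 and Vars/Lsm2/Gm10501, the anti-CD40 calls and directions held in every alternative that tested them.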
